A study of Mus musculus with 31 samples.

Results

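The chromatin accessibility of 10 T-box genes other than Brachyury was described in NIH-3T3 cells: Tbx1, Tbx2, Tbx3, Tbx4, Tbx5, Tbx15, Tbx18, Tbx20, Tbx21 and Eomes. They were chosen by name, out of 21938 protein-coding genes annotated in GENCODE M21 on chromosomes 1 to 19, X and Y. For each gene, ATAC-seq peaks were collected within 1 kb of any annotated transcription start site (TSS), in the rest of the gene, and within 50 kb to either side of it. These windows held 37 of the 63456 peaks of the library.

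The library came from parental NIH-3T3 cells, an immortalised mouse embryonic fibroblast line, grown without a TF transgene. The study measured how overexpressed TFs change accessibility, and the parental cells served to define the regions that are accessible beforehand. Doxycycline is described for NIH-3T3 cells in the methods but not in the labels of this library, and the body region from which the line was derived is not stated in the labels. In ATAC-seq, the transposase Tn5 cuts and tags DNA that is not wrapped in nucleosomes, here with 0.5 µM Tn5 on 50000 cells and 12 cycles of PCR. With 1 library there is no replicate error, so the values describe this library and no differences were tested. Not analysed here were 30 further samples, with 1 of 13 overexpressed TFs or with rtTA3G alone.

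The depth of the library was judged at the peak summits, since the peak list holds no read counts. Summits lay under a median of 29 fragments (quartiles 19 and 52), over a background of 2.81 fragments expected by the peak caller, and the lowest called summit lay under 10 fragments. The fibroblast label was compared with marker genes. Peaks lay within 1 kb of a TSS of 10 of 12 fibroblast markers, Fap and Lum being the exceptions, of 2 of 5 epithelial markers (Krt8 and Grhl2), of 1 of 5 blood markers (Spi1), of 0 of 5 heart muscle markers and of 0 of 4 markers of pluripotent cells. Of all protein-coding genes 53.7% had such a peak. The strongest such peak of each marker was enriched 3.41-fold to 10.5-fold for fibroblast, 3.25-fold to 5.40-fold for epithelial and 3.22-fold for blood markers. These ranges overlap.

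T-box proteins are TFs that bind DNA through a conserved T-domain, and Brachyury is the founding member of the family. Several are expressed in bounded regions of the embryo, and fibroblasts of the adult body keep part of such regional expression, so that T-box genes serve as marks of where a cell came from. Tbx5 marks the forelimb and Tbx4 the hindlimb, whereas Tbx2 and Tbx3 act at the margins of both limbs. Tbx15 acts in trunk dermis and skeleton, and Tbx18 in the anterior part of each somite. Tbx1 is required in the pharyngeal arches and the cardiac outflow tract, and Tbx20 in heart muscle. Tbx21, also called T-bet, directs type 1 T helper cells, and Eomes acts in early mesoderm and endoderm and in cytotoxic lymphocytes. The classes overlap, since Tbx2, Tbx3, Tbx5 and Tbx18 also act in the heart, and Tbx15 and Tbx18 in the limb.

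The promoters of Tbx18 and Tbx20 are shown because both genes lie on chromosome 9 and differ in this library: the summit of the strongest Tbx18 peak lies in the Tbx18 sequence, and no peak was found within 87331 bp of the Tbx20 promoter. Both sequences are RefSeq promoter windows on GRCm38.p6, the build that mm10 names, from 250 bases before to 50 bases after the TSS, written 5′ to 3′ on the strand of the gene. Capitals mark CpG dinucleotides. The Tbx18 window, on the minus strand at chr9:87731211-87731510, holds 15 CpG, and the Tbx20 window, on the minus strand at chr9:24774254-24774553, holds 26. Over all 32851 RefSeq promoter windows the median was 7 CpG (quartiles 3 and 20).
Tbx18 promoter: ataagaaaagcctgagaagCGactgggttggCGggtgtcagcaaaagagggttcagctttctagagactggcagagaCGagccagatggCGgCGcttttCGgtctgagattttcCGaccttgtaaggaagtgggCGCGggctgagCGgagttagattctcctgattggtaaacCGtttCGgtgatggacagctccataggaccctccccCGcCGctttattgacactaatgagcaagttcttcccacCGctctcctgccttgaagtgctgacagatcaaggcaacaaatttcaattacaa
Tbx20 promoter: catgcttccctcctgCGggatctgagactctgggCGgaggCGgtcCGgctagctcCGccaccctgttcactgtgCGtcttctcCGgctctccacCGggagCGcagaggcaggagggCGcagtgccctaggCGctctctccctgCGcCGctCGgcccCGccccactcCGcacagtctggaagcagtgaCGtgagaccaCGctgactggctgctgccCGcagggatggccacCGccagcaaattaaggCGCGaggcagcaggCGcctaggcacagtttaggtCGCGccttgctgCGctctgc
Of these windows, the one with more CpG was thus the one without a peak. Over the 1000 bp around the same TSSs, the CpG counts were 55 for Tbx18 and 58 for Tbx20. The ratio of observed CpG to the number expected from base composition was 0.753 for Tbx18 and 0.630 for Tbx20, the reverse order. RefSeq windows were matched for 6 of the 10 genes, namely Tbx1, Tbx4, Tbx18, Tbx20, Tbx21 and Eomes, and not for Tbx2, Tbx3, Tbx5 and Tbx15.

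Away from promoters, the summits of 3 peaks past the end of Tbx4 and of the strongest peak near Eomes are shown because each holds TGACTCA, the sequence bound by the AP-1 dimers of Fos and Jun proteins. Each run is the 201 bp centred on the summit, on the plus strand of mm10, with the AP-1 sequence in capitals in the orientation in which it was found, TGACTCA or TGAGTCA. The Tbx4 sequences lie on chromosome 11 at chr11:85942287-85942487, chr11:85953067-85953267 and chr11:85963034-85963234, and the Eomes sequence lies at chr9:118448280-118448480.
Tbx4 downstream, 56.0 kb from the first TSS: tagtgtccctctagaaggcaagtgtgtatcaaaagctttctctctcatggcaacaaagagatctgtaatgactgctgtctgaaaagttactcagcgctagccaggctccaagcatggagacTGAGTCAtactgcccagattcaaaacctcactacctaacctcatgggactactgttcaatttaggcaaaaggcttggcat
Tbx4 downstream, 66.7 kb from the first TSS: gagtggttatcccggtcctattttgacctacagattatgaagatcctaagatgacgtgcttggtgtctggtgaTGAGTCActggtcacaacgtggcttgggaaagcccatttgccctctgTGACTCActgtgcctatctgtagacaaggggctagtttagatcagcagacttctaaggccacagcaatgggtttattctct
Tbx4 downstream, 76.7 kb from the first TSS: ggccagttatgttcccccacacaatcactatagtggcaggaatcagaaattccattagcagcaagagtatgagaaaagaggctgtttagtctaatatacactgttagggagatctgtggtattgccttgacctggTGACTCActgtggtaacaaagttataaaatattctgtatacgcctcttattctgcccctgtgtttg
Eomes upstream, 29.8 kb from the first TSS: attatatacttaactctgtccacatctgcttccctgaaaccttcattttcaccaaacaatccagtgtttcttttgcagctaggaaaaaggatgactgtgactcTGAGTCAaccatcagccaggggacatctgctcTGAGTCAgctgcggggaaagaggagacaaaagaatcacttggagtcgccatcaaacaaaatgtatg
The middle Tbx4 sequence and the Eomes sequence hold the AP-1 sequence at 2 places each.

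Promoter accessibility was found at 3 of the 10 T-box genes: Tbx3, Tbx15 and Tbx18. In the whole library, 53.7% of protein-coding genes had a peak within 1 kb of a TSS (11788 of 21938). By role, a promoter peak was found for 1 of 4 limb genes (Tbx3), for 2 of 2 trunk genes (Tbx15 and Tbx18), for 0 of 2 heart and pharynx genes (Tbx1 and Tbx20) and for 0 of 2 genes of the early embryo and lymphocytes (Tbx21 and Eomes). With 2 to 4 genes a class these counts carry no test. A peak inside the gene but away from its TSSs was found for 1 gene, Tbx15, where 34.3% of all protein-coding genes had one. A peak in the gene or within 50 kb was found for 9 of 10, all but Tbx20, where 84.2% of all protein-coding genes had one. The median number of peaks in this window was 4.5 for the T-box genes and 5 for all protein-coding genes. The windows differ in length with the genes, from 107.9 kb for Eomes to 213.9 kb for Tbx15.

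**Figure D1:**
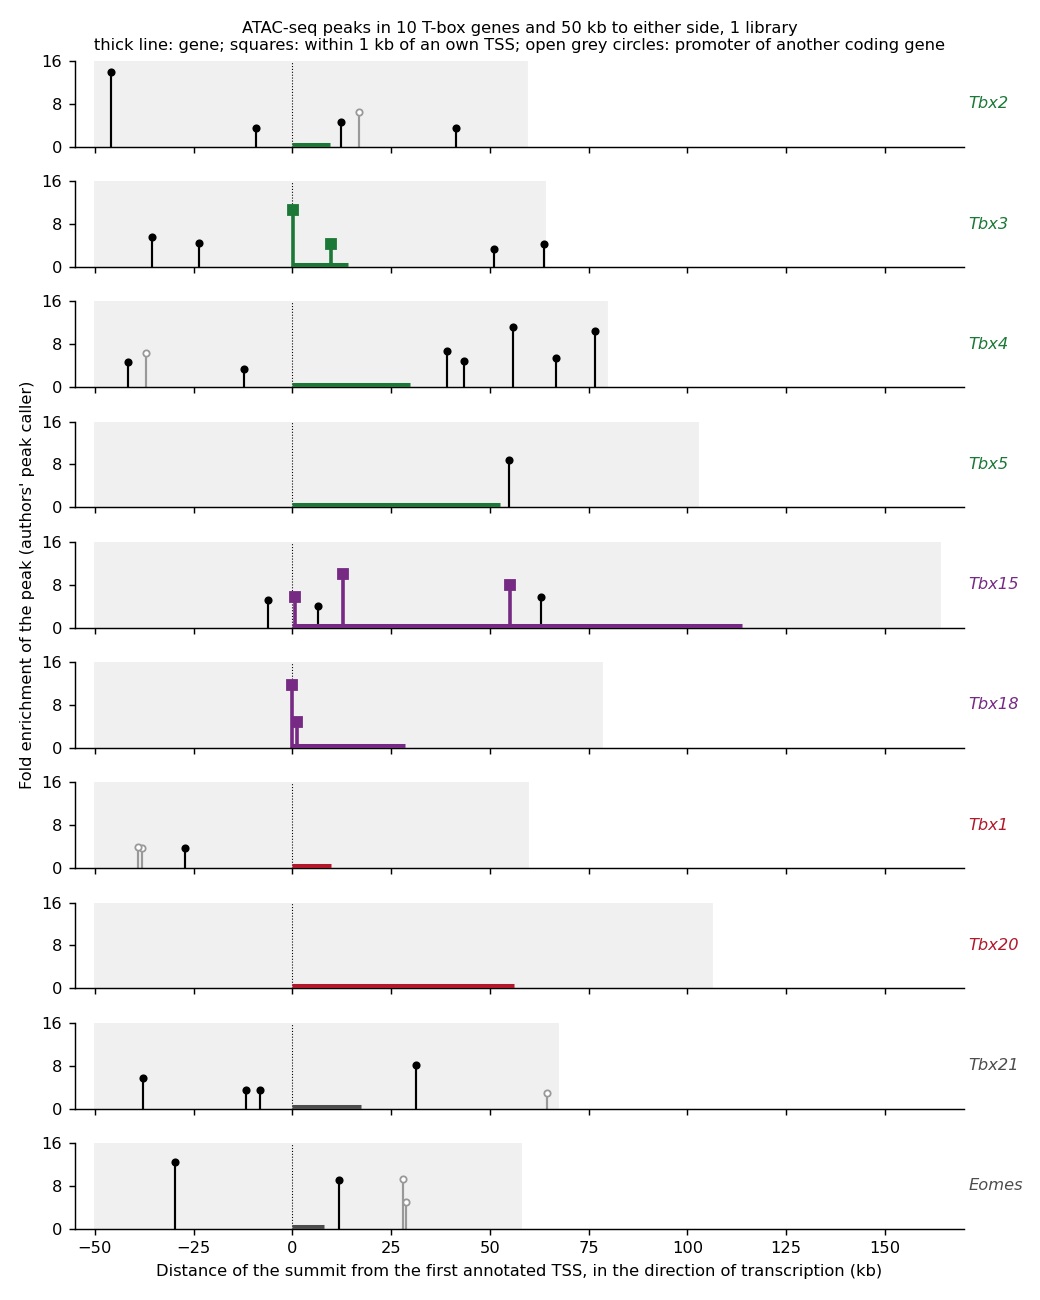
Each row plots the peaks of 1 T-box gene: the horizontal axis is the distance of the summit from the first annotated TSS in kb, in the direction of transcription, and the vertical axis the fold enrichment given by the peak caller. Squares mark peaks within 1 kb of a TSS of the gene, filled circles other peaks, open grey circles peaks at the promoter of another protein-coding gene, the thick line the gene and the shaded area the gene with 50 kb to either side. Squares appear only for Tbx3, Tbx15 and Tbx18, and the Tbx20 row is empty.

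The map of peaks along the genes shows several arrangements. In Tbx18 both peaks sit at the promoter and the flanks are empty, in Tbx3 and Tbx15 promoter peaks stand among others, and in Tbx2, Tbx4, Tbx5, Tbx1, Tbx21 and Eomes the gene itself is bare while peaks lie outside it. Tbx20 has no peak in the gene or the flanks. Of the 37 distinct peaks, 7 lay within 1 kb of a TSS of a T-box gene, 2 in the body of Tbx15 and 28 in the flanks, 6 of them at the promoter of another protein-coding gene. The windows of Tbx2 and Tbx4 share 3 peaks, which were counted once.

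Tbx18 (chr9:87702800-87731260, minus strand), which separates the anterior from the posterior somite, had the strongest promoter peak of the 10 genes by fold enrichment. The peak at chr9:87731019-87731538 was enriched 11.8-fold over the local expectation (−log10 q 48.3). Its summit, under 66 fragments (exact 95% Poisson interval 51.0 to 84.0), lay 101 bp upstream of the TSS of the protein-coding transcript. This fold enrichment exceeded that of 87.9% of all peaks, and 69.5% of protein-coding genes with a promoter peak had a lower best value. A broader and weaker peak of 1151 bp, at chr9:87729659-87730809, spanned the TSS of the shorter non-coding transcript and was enriched 4.81-fold (−log10 q 9.61, 26 fragments at the summit). Both summits lie in an exon of D030062O11Rik, a gene on the opposite strand, and the broader peak also lies within 1 kb of its TSS. ATAC-seq does not tell strands apart. No further peak was found in the gene or within 50 kb.

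Tbx3 (chr5:119670669-119684724, plus strand), which patterns the limb margins and is needed for mammary and cardiac conduction tissue, had 2 promoter peaks. The stronger one, at chr5:119669950-119671066, covered 1117 bp, was wider than 86.2% of all peaks at protein-coding promoters and spanned the first 3 of the gene's 5 TSSs. It was enriched 10.6-fold (−log10 q 63.4), and its summit, 100 bp downstream of the first TSS, lay under 96 fragments (77.8 to 117). Tbx3os1, a non-coding gene on the opposite strand, overlaps the start of Tbx3. The summit of this peak lies in an intron of Tbx3os1, and a TSS of Tbx3os1 lies within 1 kb of the peak too. The weaker one, at chr5:119680361-119680513 in an exon of Tbx3, counted as a promoter peak through a non-coding transcript whose TSS is 112 bp away, and was enriched 4.23-fold (−log10 q 5.36, 16 fragments). In the flanks, 4 peaks had fold enrichments of 3.32 to 5.64, the highest at chr5:119635000-119635216 in an intron of Tbx3os1.

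Tbx15 (chr3:99240381-99354259, plus strand), whose loss shortens the skeleton and shifts the pigment boundary of the trunk in mice, is the longest of the 10 genes at 113.879 kb and had 3 promoter peaks, 1 for each of its TSSs. The strongest, at chr3:99252985-99254113, covered 1129 bp over the TSS of Tbx15-201, the transcript in the basic GENCODE set, and was enriched 9.96-fold (−log10 q 56.1) with 88 fragments at the summit (70.6 to 108). The peak near the most upstream TSS, at chr3:99240696-99241622, was enriched 5.67-fold (−log10 q 9.72, 21 fragments). The peak nearest to the third TSS, at chr3:99295319-99295592, lay 918 bp from it with its edge and 1021 bp with its summit, and so fell just inside the 1 kb limit, and was enriched 7.88-fold (−log10 q 17.5). The 2 peaks in introns had fold enrichments of 3.94 (chr3:99246633-99246871) and 5.78 (chr3:99303241-99303372). The only flanking peak, at chr3:99233849-99234424 in an intron of Wars2, had a fold enrichment of 5.18.

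The strongest promoter peaks of Tbx3, Tbx15 and Tbx18 had 96, 88 and 66 fragments at the summit. Their 95% Poisson intervals overlapped, and differences in depth between them were not tested. Their fold enrichments, 10.6, 9.96 and 11.8, had a median of 10.6, and the best promoter peaks of all protein-coding genes with one had a median of 9.86 (quartiles 7.27 and 12.4). Tbx18 had the highest fold enrichment with the fewest fragments. The peak caller expected 4.69 fragments at its summit, against 8.17 at Tbx3 and 7.94 at Tbx15, and the fold is taken over that expectation.

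**Figure D2:**
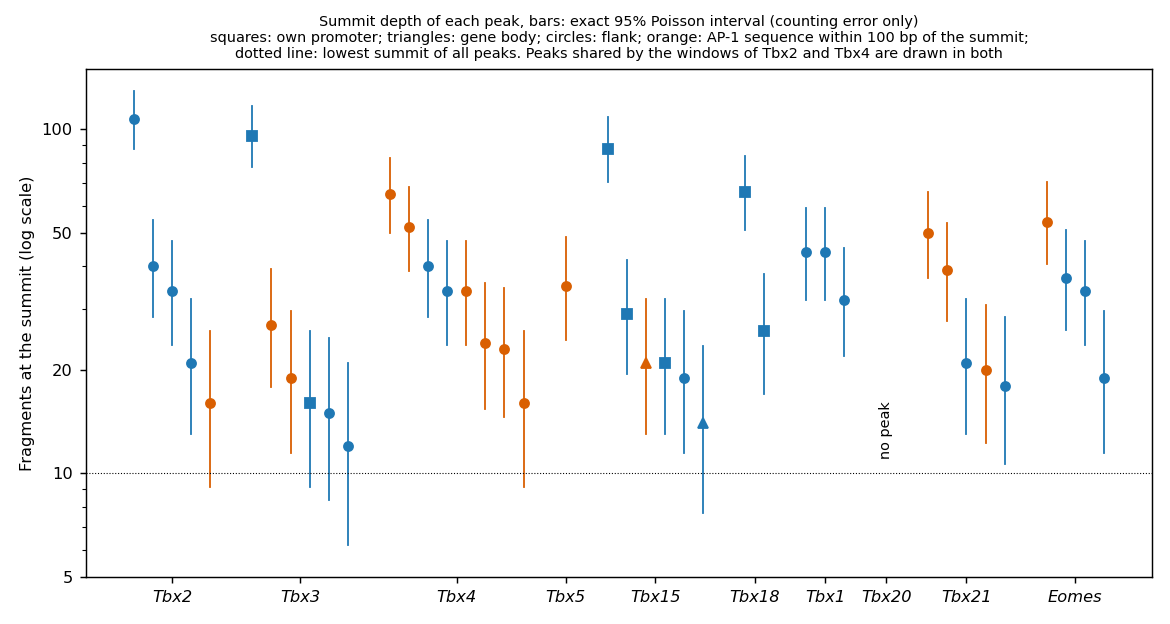
The number of fragments at each summit is plotted on a logarithmic vertical axis for the peaks of each T-box gene, with the exact 95% Poisson interval as a bar. Squares are promoter peaks, triangles gene-body peaks and circles flanking peaks, orange marks peaks with the AP-1 sequence in the 201 bp around the summit, and the dotted line is the lowest summit of the library at 10 fragments. The strongest promoter peaks of Tbx3, Tbx15 and Tbx18, at 96, 88 and 66 fragments, stand above the other peaks of these genes, and every promoter peak is blue.

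Tbx5 (chr5:119832668-119885219, plus strand), which initiates the forelimb bud and acts in the heart, had no peak over its 3 TSSs or its 52.552 kb. The 1 peak in its window, at chr5:119887321-119887859, lay 2102 bp beyond the end of the gene, and was enriched 8.88-fold (−log10 q 22.6, 35 fragments). It is 51166 bp from the nearest TSS of Tbx5. Tbx3 and Tbx5 are neighbours on chromosome 5, and the 147.943 kb between them held 2 peaks, with fold enrichments of 3.32 and 4.20, both in the 50 kb next to Tbx3. The peak with the value of 4.20, at chr5:119734416-119734568, lay 49692 bp from Tbx3, and 73.1% of its summit window is soft-masked repeat sequence. Within this pair, the limb margin gene had a promoter peak and the forelimb gene had none.

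Tbx4 (chr11:85886422-85916097, plus strand), which acts in the hindlimb and the lung mesenchyme, had no peak at its 3 TSSs or in its body and yet had the most peaks in its window, 8, a number that 66.4% of protein-coding genes did not reach. Past the end of the gene 5 peaks followed each other over the 50 kb flank, from 9248 to 46862 bp beyond the gene. Their fold enrichments, in order from the gene, were 6.74, 4.82, 11.2, 5.52 and 10.4. The peak at chr11:85941906-85942620 had 65 fragments at its summit (50.2 to 82.8, −log10 q 46.0), and the peak at chr11:85962959-85963255 had 52 (38.8 to 68.2, −log10 q 35.9). The nearest protein-coding gene in that direction, Brip1, lies 142040 bp from Tbx4, and these 5 peaks are between genes.

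Tbx2 (chr11:85832551-85841948, plus strand), a repressor that acts in limb, heart and eye, lies upstream of Tbx4 and also had neither promoter nor gene-body peaks. Its nearest peak was 9079 bp upstream of its single TSS, at chr11:85823351-85823472, and had a fold enrichment of 3.54 and 21 fragments. The deepest peak of all 37 lay in its window, 46.0 kb upstream of the TSS at chr11:85786267-85786831 in an intron of Bcas3, enriched 13.9-fold (−log10 q 83.4) with 107 fragments (87.7 to 129). The 44.473 kb between Tbx2 and Tbx4 held 3 peaks with fold enrichments of 3.43 to 6.43, and the highest of them lies at the promoter of Gm11444.

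Tbx1 (chr16:18580979-18590671, minus strand), the main gene of the pharyngeal phenotype in 22q11 deletion models, had no peak at any of its 4 TSSs, and the nearest one was 26994 bp away. All 3 peaks in its window lay upstream and had low fold enrichments, from 3.77 to 3.85, and 2 of these were at the promoter of Sept5. Their summits lay under 32 to 44 fragments, but the local expectation there, 7.75 to 10.9 fragments, was above the background of 2.81. The remaining peak, at chr16:18617665-18617910, was between genes.

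Tbx20 (chr9:24718138-24774303, minus strand), a regulator of heart muscle, was the one gene with no peak in its window. The nearest peak, at chr9:24861634-24861865, lay 87331 bp upstream, with a fold enrichment of 5.78. Its TSSs fall in a stretch of 319422 bp without a peak, and 83.6% of protein-coding genes have their first TSS in a shorter one or inside a peak. Of all protein-coding genes 15.8% had no peak in the window. The neighbouring genes Dpy19l2 and Gm10181 had no promoter peak either.

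Tbx21 (chr11:97098071-97115331, minus strand), the T helper cell gene, had 5 flanking peaks, none closer than 8099 bp to its TSS. The strongest, at chr11:97083801-97084215, lay 13856 bp beyond the end of the gene and was enriched 8.16-fold (−log10 q 28.8) with 50 fragments (37.1 to 65.9). The others had fold enrichments of 2.87 to 5.73, and the lowest lay at the promoter of Osbpl7. Eomes (chr9:118478212-118486132, plus strand) had 4, of which 2 were at the promoter of Golga4 (9.29 and 5.00). The peak with the highest value, at chr9:118448142-118448798, lay 29.8 kb upstream between genes and was enriched 12.5-fold (−log10 q 42.2) with 54 fragments (40.6 to 70.5). The remaining peak, at chr9:118489524-118490172 near the TSS of the non-coding gene Gm33460, had a fold enrichment of 9.19. The strongest flanking summits of Tbx21 and Eomes, under 50 and 54 fragments, are the highest of each gene and both lie more than 1 kb from any TSS. All peaks so placed had a median of 25 fragments, and all peaks at protein-coding promoters had 52. The TSSs of Tbx21 and Eomes were without a called peak.

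Most promoters in this library were accessible when rich in CpG, so the T-box genes were also set against promoters of their own kind. A promoter was called CpG-rich when the 1000 bp around a TSS had at least 55% GC and a CpG observed to expected ratio of at least 0.6. By this rule 8 of the 10 T-box genes were CpG-rich, the exceptions being Tbx4 (0.511) and Tbx5 (0.425). The ratio given for a gene is the highest among its TSSs. Tbx18 met the rule only at the TSS of its non-coding transcript (0.96). At the TSS of its protein-coding transcript the ratio was 0.753 and the GC content 54.6%, below the limit. Among all protein-coding genes, 81.5% of those with a CpG-rich promoter had a promoter peak, and 30.0% of the others. Of the 8 CpG-rich T-box genes 3 had one. The 5 without one, Tbx2, Tbx20, Tbx21, Eomes and Tbx1, had ratios of 0.63 to 1.03, and Tbx3, Tbx15 and Tbx18 had ratios of 0.761 to 0.96. The ranges overlap. Tbx20 is in this group, and 2.60% of CpG-rich protein-coding genes had, as Tbx20 did, no peak in the window. The median number of peaks in the window was 7 for CpG-rich protein-coding genes (quartiles 4 and 10) and 4.5 for the 10 T-box genes. Tbx1, with the highest ratio of the 10 genes, had no promoter peak in a class of genes (ratio of 1.0 to 1.2) of which 90.6% had one.

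**Figure D3:**
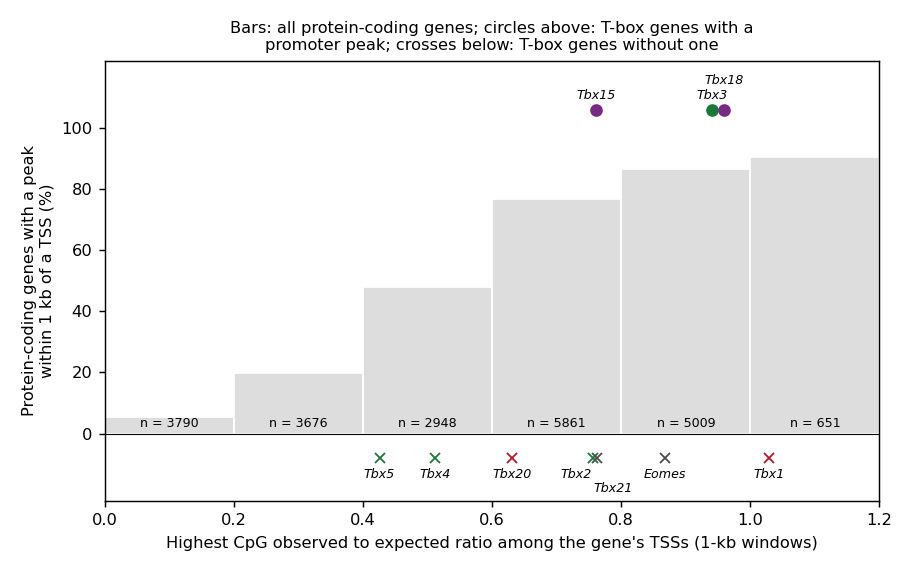
The bars give the percentage of protein-coding genes with a peak within 1 kb of a TSS, by the highest CpG observed to expected ratio among the 1-kb windows at the gene's TSSs, with the number of genes in each bar. Circles above the bars mark the T-box genes with a promoter peak and crosses below the axis those without, each placed at its own ratio. The bars rise from 5.44% to 90.6% over ratios of 0 to 1.2 (3 genes with a higher ratio, of which 1 had a promoter peak, are not drawn), and crosses lie as far to the right as circles.

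The plot of accessibility by CpG ratio places Tbx4 and Tbx5 in the class from 0.4 to 0.6, in which 48.0% of genes had a promoter peak. Tbx2, Tbx15, Tbx20 and Tbx21 fall in the class from 0.6 to 0.8 (76.9%), and 1 of these 4, Tbx15, had one. Tbx3, Tbx18 and Eomes fall in the class from 0.8 to 1.0 (86.6%), and Eomes had none. The part that CpG content or any other feature plays in these differences was not tested.

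Several T-box genes without a promoter peak have a nearest protein-coding neighbour with one. The distance to such a neighbour ranged from 4841 bp (Gm11444 to Tbx2) to 328034 bp (Cmc1 to Eomes). The 10 genes, with or without a promoter peak, had 17 nearest protein-coding neighbours that are not themselves among the 10. Of these 17, 11 had a promoter peak, or 64.7%, beside 53.7% of all protein-coding genes. Both neighbours of Eomes (Cmc1 and Golga4) and the neighbours Bcas3 and Gm11444 of Tbx2 were among them, and Tbx21 lies between Osbpl7, which had one, and Tbkbp1, which had none. At Tbx18, which had promoter peaks of its own, the neighbour Nt5e, 595936 bp away, had none and Cep162, 447263 bp away, had 1.

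Short sequences were counted around the summits. The AP-1 sequence TGACTCA, on either strand, was present in the 201 bp around the summit of 14 of the 37 peaks (37.8%) and of 30.1% of all peaks in the library. Of the 22 peaks more than 1 kb from any annotated TSS, 13 held it (59.1%), and of the 47192 such peaks in the library 36.5% did. The genes differed in this. The sequence was in 6 of 7 such peaks at Tbx4, 3 of 4 at Tbx21 and 1 of 1 at Tbx5 and at Eomes. It was in 1 of 4 at Tbx2, 1 of 3 at Tbx3 and at Tbx15 and 0 of 1 at Tbx1. Peaks shared by Tbx2 and Tbx4 count for both genes here. None of the 7 promoter peaks held it, and of the library's peaks at protein-coding promoters 8.76% did. All 5 peaks past the end of Tbx4, the single Tbx5 peak and the strongest flanking peaks of Tbx21 and Eomes held it, and the 107-fragment peak upstream of Tbx2 did not. The runs printed above show 3 of the Tbx4 windows and that of Eomes. These letters in a window are a description and not a measured binding site.

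Other sequences were rarer in these windows. The T-box half-site core AGGTGTGA, searched on both strands, was in 0 of the 37 windows and in 0.542% of all peaks. The shorter AGGTGT, which is part of it, was in 2 of 37, the main promoter peak of Tbx3 and a flanking peak of Tbx21, and in 6.56% of all peaks. GGAATG, the sequence bound by TEAD proteins, was in 3 of 37 and in 15.0% of all peaks. These shares rest on 37 windows and were not tested.

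As positional marks, the 10 genes were set beside other developmental regulators and the rest of the T-box family. Among the 7 other T-box genes, 2 had a promoter peak: Mga, which encodes a widely expressed Max partner with a T-domain, enriched 8.77-fold (−log10 q 26.2), and Tbr1, a regulator of cortical neurons, enriched 2.89-fold (−log10 q 1.72), close to the lower limit of the list. T, Tbx6, Tbx10, Tbx19 and Tbx22 had none. Of 12 limb regulators, 6 had a promoter peak, with fold enrichments from 3.65 for Prrx1 to 8.80 for Meis1, and with Meis2, Shox2, Fgf10 and Tfap2a between them. Pitx1, which acts with Tbx4 in the hindlimb, had none, nor had Hand2, Sall1, Sall4, Lmx1b and Alx4.

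Of 12 trunk regulators, 5 had a promoter peak: Pax3 (11.4), Pax9 (10.8), En1 (9.15), Foxc1 (8.94) and Foxc2 (6.55). Pax1, Meox1, Meox2, Foxf1, Tcf15, Uncx and Sim2 had none. Of 10 heart regulators, 2 had one, Gata4 (7.12) and Mef2c (3.15), and Nkx2-5, Gata5, Gata6, Isl1, Hand1, Smyd1, Irx4 and Myocd had none. The Mef2c peak (−log10 q 2.31, 11 fragments at the summit) was close to the lower limit of the list. Together 13 of these 34 regulators had a promoter peak, or 38.2%, and 8 of the 22 with a CpG-rich promoter did. The corresponding T-box counts were 3 of 10 and 3 of 8, and both lists lay below the 53.7% and 81.5% of all protein-coding genes. By role, T-box genes and other regulators stood at 1 of 4 and 6 of 12 for the limb, 2 of 2 and 5 of 12 for the trunk, and 0 of 2 and 2 of 10 for the heart. Each regulator was placed in 1 list only, though roles may overlap as they do for the T-box genes, so these counts depend on that assignment. The lists are small and were chosen with earlier results of these data known, and differences between them were not tested. A stricter q or fold enrichment was tried for the 10 T-box genes and not for the lists of other regulators.

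**Figure D4:**
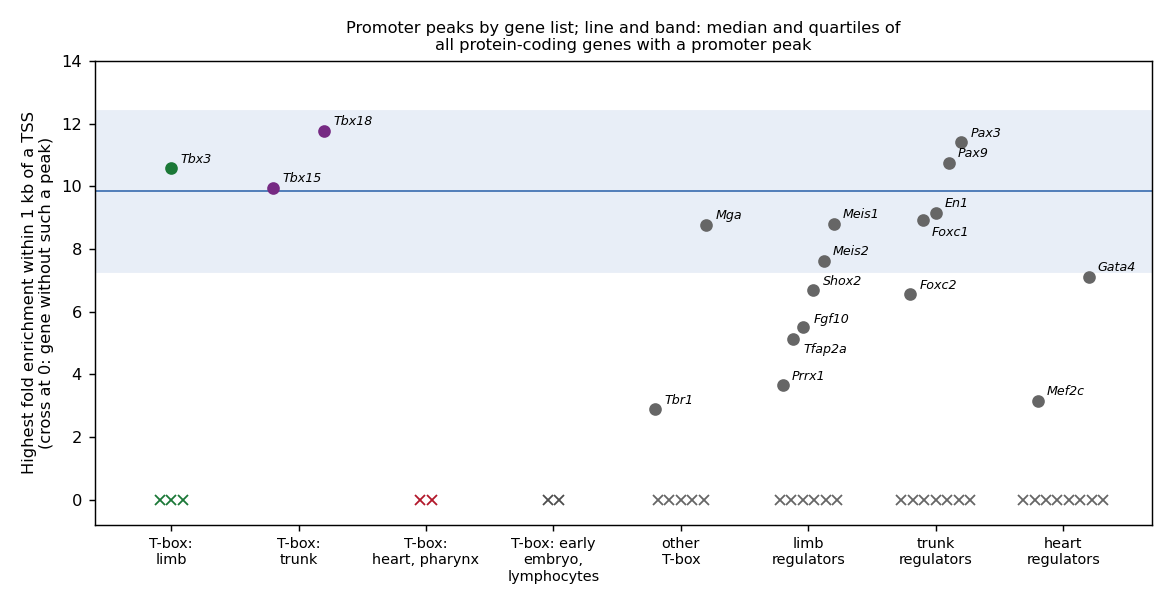
Each point is the highest fold enrichment of a peak within 1 kb of a TSS of 1 gene, by gene list, and each cross at 0 is a gene without such a peak. The line and band are the median of 9.86 and the quartiles of 7.27 and 12.4 of all protein-coding genes with a promoter peak. Tbx3, Tbx15 and Tbx18 lie at 9.96 to 11.8, inside the band, and of the other regulators Pax3 and Pax9 lie above the line.

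The plot of promoter peaks by list places the accessible T-box promoters between the quartiles of all accessible promoters. Of the other regulators with a promoter peak, Pax3 and Pax9, which pattern the somites and the sclerotome, lay above the median of all protein-coding genes with one, and the 6 limb genes, the 2 heart genes and the trunk genes En1, Foxc1 and Foxc2 lay below it. A promoter peak shows accessible DNA in this library and not that a gene was transcribed, which was not measured here.

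Some peaks lay near the limits used. Just beyond 50 kb, the nearest peaks were 51821 bp from Tbx15 with a fold enrichment of 8.14 and 52434 bp from Tbx3 with 12.1. Just inside it were the Tbx3 peak at 49692 bp (4.20) and a Tbx21 peak at 47123 bp (2.87). The last Tbx4 peak, at 46862 bp (10.4), and the deepest peak of all, at 45720 bp from Tbx2 (13.9), followed. At 1 kb from a TSS, the third Tbx15 promoter peak at 918 bp was just inside. For the 7 genes without a promoter peak, the nearest peak to a TSS lay between 8099 bp (Tbx21) and 87331 bp (Tbx20) away.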

How the data were processed

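The peak list of a single ATAC-seq library from parental NIH-3T3 cells was used, and no comparison between samples was made. Per the submitters' processing notes and the paper's methods, the authors used STAR 2.5.3a for alignment to mm10, Picard for duplicates and MACS2 2.1.1.20160309 to call peaks on whole fragments of read pairs. The authors deposited for each peak a fold enrichment (the ratio of summit to expected pileup, each with 1 added), a −log10 p, a −log10 q, a score of 10 times the −log10 q rounded down for 63455 peaks, and the summit position. The methods describe a filter on blacklisted regions for ChIP-seq and refer to it for ATAC-seq.

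Peaks, counted from base 1, were placed on GENCODE M21. The number of fragments under a summit was computed from the deposited fold enrichment and −log10 p, to within 0.02 of the deposited −log10 p for 63454 peaks, after the solver was tested on simulated data. Exact 95% Poisson intervals cover counting error only. Sequences are from RefSeq (GRCm38.p6) and the mm10 reference. A peak within 1 kb of a TSS of the gene was not counted again in its body. Named were all 10 genes, every promoter peak and up to 3 of the strongest peaks elsewhere. The members and lists were chosen with earlier results of these data known, and the flanking sequences printed and the weaker flanking peaks named were picked with their values in view. The alternatives tried were TSS distances of 0 bp and 5 kb, basic transcripts, summits in place of intervals, flanks of 20 and 100 kb, a q of 1e-05, a fold enrichment of at least 5 and leaving out promoters of other genes. Software was Python 3.11.15 with pandas 2.3.3, NumPy 2.4.6, matplotlib 3.10.9 and SciPy 1.17.1.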

Additional observations from a re-analysis of the deposited data

How the results depend on the processing

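The number of peaks in and around the 10 genes depended on the window and on the strength required: it was 37 as described, 76 with flanks of 100 kb, 22 with flanks of 20 kb and 21 with a fold enrichment of at least 5. It was 31 both at a q of 1e-05 and without peaks at promoters of other genes. Promoter peaks were found for Tbx3, Tbx15 and Tbx18, and for no other of the 10 genes, under all 6 alternatives tried, and a gene-body peak for Tbx15 alone under all 3. Between 8 and 10 genes had a peak in the window under the 5 alternatives: Tbx1 had none with flanks of 20 kb or a fold enrichment of at least 5, and Tbx20 had one with flanks of 100 kb. No paired analysis was possible because the peak list comes from a single library. For the same reason no replicate could be left out. Summits under 10 fragments are not in the peak list, so a gene without a peak may have accessibility that was not detectable at this depth.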
